A study of Mus musculus with 6 samples.

Results

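Long stretches of the mouse autosomes carried no H3K27ac peak in embryonic stem cells (ESC). These gaps were chosen by peak position alone, as every autosomal interval of 500000 bp or more between neighbouring peaks of the control peak list. There were 972 such gaps among 22499 autosomal intervals and 22952 intervals on all chromosomes. H3K27ac was mapped by chromatin immunoprecipitation and sequencing (ChIP-seq) in the mouse line E14Tg2A, carrying Rosa26-Cre and Oct4-IRES-Puro and grown in N2B27 medium with LIF, PD0325901 and CT-99021. The series holds 2 replicates each of DMSO-treated control cells, of cells given 100 nM of the CDK9 inhibitor NVP-2 for 120 min, and of cells given actinomycin D for 120 min, with human HEK293 cells as spike-in. The actinomycin D dose is 800 nM in the sample labels and 1 µg/ml in the treatment protocol. Peaks of the 2 control replicates were deposited as one pooled list of 22973 regions, so that neither depth nor replicate error can be read from it, and the treated samples were not analysed here. All cells belong to one line and all descriptions below concern the DMSO control. Of 10 pluripotency genes used as a check of the cell type, 8 had a control peak within 1 kb of their transcription start site (TSS), and none lay in a gap; Klf4 and Esrrb had no peak at the TSS of the isoform used.

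Acetylation of histone H3 at lysine 27 marks active promoters and enhancers, and it is laid down by the acetyltransferases p300 and CBP. Mammalian chromosomes alternate between GC-rich, gene-dense stretches and AT-rich, gene-poor stretches, in which large neural genes and tandem arrays of tissue-specific gene families are common. Most promoters of genes active in every cell lie in CpG islands, where CpG dinucleotides escape the depletion seen in the rest of the genome.

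Sequences from inside and from the borders of gaps are shown first, as examples of single promoters. They vary in CpG and GC content and do not stand for the contrast between gaps and the rest of the autosomes described further on. All are from the mm10 (GRCm38) assembly, with CpG dinucleotides in capitals. The first pair are the 250 bases before the RefSeq start of sensory receptor genes inside gaps. Olfr1199, an olfactory receptor, is at chr2:88760486-88760735 (minus strand) with 2 CpG and 30.0% GC, and Vmn2r43, a pheromone receptor of the vomeronasal organ, is at chr7:8260600-8260849 (minus strand) with 0 CpG and 38.4% GC.
Olfr1199: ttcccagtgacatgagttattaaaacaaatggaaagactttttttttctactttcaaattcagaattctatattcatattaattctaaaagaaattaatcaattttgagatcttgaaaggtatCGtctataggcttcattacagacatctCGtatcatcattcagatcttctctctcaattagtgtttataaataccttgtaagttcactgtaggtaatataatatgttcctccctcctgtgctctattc
Vmn2r43: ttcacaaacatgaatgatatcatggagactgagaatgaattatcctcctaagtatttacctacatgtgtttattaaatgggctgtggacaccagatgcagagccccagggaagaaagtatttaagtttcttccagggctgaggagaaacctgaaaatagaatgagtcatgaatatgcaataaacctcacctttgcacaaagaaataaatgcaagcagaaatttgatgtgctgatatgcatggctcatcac
The following pair come from neural genes in gaps and hold more CpG. Cntnap2, a neurexin-related adhesion protein of axons, is at chr6:45059811-45060060 (plus strand) with 13 CpG and 59.6% GC, and Slitrk1, a synaptic transmembrane protein in the second longest gap, is at chr14:108914240-108914489 (minus strand) with 9 CpG and 40.4% GC.
Cntnap2: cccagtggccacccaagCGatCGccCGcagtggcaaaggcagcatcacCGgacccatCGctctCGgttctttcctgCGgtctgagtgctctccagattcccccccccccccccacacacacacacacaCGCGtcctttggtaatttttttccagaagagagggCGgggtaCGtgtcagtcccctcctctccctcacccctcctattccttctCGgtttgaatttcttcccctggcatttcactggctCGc
Slitrk1: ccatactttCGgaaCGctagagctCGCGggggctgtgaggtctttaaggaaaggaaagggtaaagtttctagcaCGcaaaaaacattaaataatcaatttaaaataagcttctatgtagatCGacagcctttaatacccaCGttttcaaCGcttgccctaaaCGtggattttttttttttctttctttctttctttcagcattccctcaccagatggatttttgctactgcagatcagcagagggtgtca
The last pair stand at the borders of the longest gap. Api5, an apoptosis inhibitor, is at chr2:94438187-94438436 (minus strand) with 13 CpG and 50.8% GC, and Traf6, a ubiquitin ligase of innate immune signalling, is at chr2:101678170-101678419 (plus strand) with 13 CpG and 56.4% GC.
Api5: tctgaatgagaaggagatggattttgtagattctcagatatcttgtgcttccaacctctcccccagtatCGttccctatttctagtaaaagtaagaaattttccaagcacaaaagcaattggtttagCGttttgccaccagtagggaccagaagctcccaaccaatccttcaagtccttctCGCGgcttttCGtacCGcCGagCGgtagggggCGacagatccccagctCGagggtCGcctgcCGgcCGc
Traf6: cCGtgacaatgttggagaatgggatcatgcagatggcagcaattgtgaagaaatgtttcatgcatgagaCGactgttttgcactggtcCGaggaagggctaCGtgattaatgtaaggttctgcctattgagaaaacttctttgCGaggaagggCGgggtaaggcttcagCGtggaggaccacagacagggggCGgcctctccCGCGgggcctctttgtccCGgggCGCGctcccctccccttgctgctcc
The Api5 TSS lay 7 bp outside the gap and the Traf6 TSS 3 bp inside it, so that both sequences fall within the gap although each gene had a peak downstream of its start.

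The 972 gaps were few but long. They made up 4.32% of the autosomal intervals and together spanned 1098.8 Mb, or 44.6% of the length of the 19 autosomes. Their lengths ran from 500740 bp to 7.24 Mb, with a median of 877.2 kb and quartiles of 650.8 and 1313 kb. The 393 gaps of 1 Mb or more held 63.1% of the gap length. At the threshold, the 5 shortest gaps measured 500740 to 501547 bp and the 5 longest intervals left out 498753 to 499036 bp, so that the limit separates intervals of nearly the same size. A further 3526 autosomal intervals of 100 to under 500 kb, with 734.2 Mb in all, serve below as the nearest comparison, since they also contain no peak. The X chromosome had 78 intervals of 500 kb or more, which are not members.

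Part of the gaps consists of sequence that occurs more than once in the genome, where short reads are hard to place, or that is not assembled. In the gaps, 92.1% of 100-mers sampled every 500 bp occurred once in the genome, against 95.02% in the intervals of 100 to under 500 kb and 95.8% in the autosomes outside gaps. Uniqueness was 90% or more in 868 gaps (89.3%), under 80% in 38 gaps and under 50% in 13. Unassembled bases made up 0.330% of the gap length, and 11 gaps consisted of them by more than 10%. The least unique was a 1.53 Mb gap at chr2:175176847-176708324, with 0.635% unique 100-mers and 22.9% unassembled bases. The part of repeated and unassembled sequence in the absence of peaks was not tested. The 38 gaps of low uniqueness held 49.7 Mb and 667 genes, and values without them are given with the alternatives in the closing section.

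**Figure D1:**
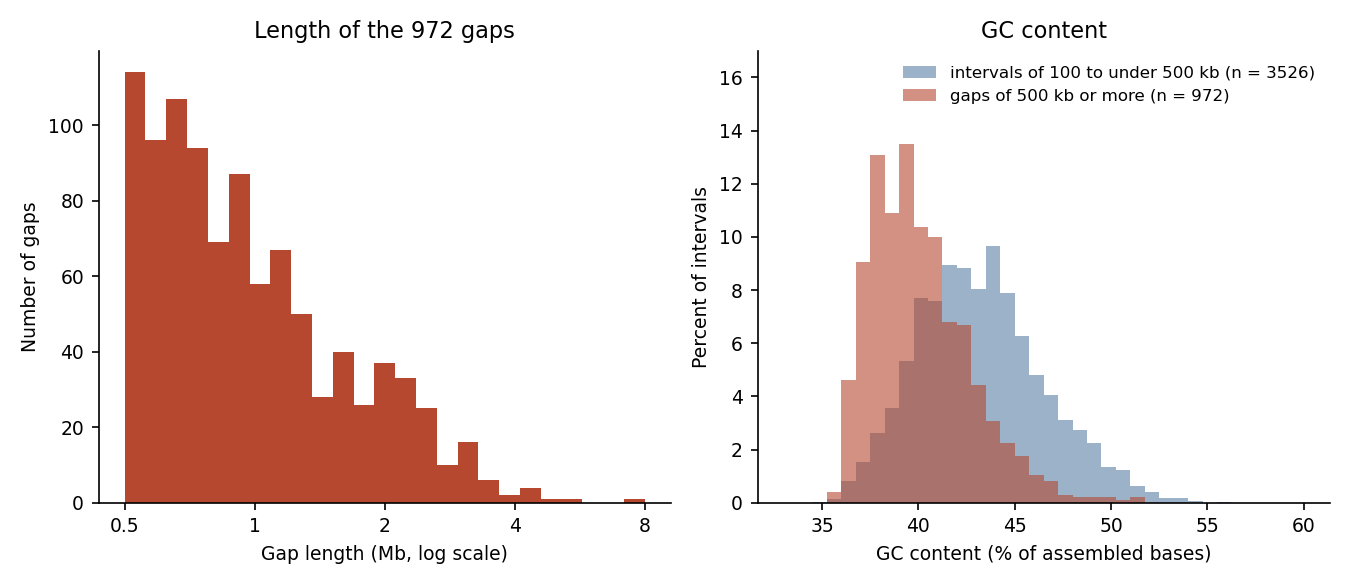
Left, number of gaps by length (Mb, log scale). Right, percent of intervals by GC content (% of assembled bases) for the 972 gaps and for the 3526 autosomal intervals of 100 to under 500 kb. Gap numbers fall from 500 kb towards the single gap of 7.24 Mb, and the GC content of gaps, with a median of 39.7%, lies below that of most shorter intervals.

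Gaps were AT-rich and poor in CpG. Their GC content was 39.5% of assembled bases, against 42.9% in the intervals of 100 to under 500 kb, 43.99% in the autosomes outside gaps and 48.7% in the peaks. The difference between gaps and the remaining autosomes was -4.50 percentage points. Single gaps ranged from 35.3% to 51.5% GC with a median of 39.7%, and 758 of them (78.0%) were below the autosomal value of 41.9%, as were 37.7% of the intervals of 100 to under 500 kb. CpG dinucleotides numbered 6.34 per kb in gaps and 10.3 per kb outside, and the ratio of observed to expected CpG was 0.163 in gaps and 0.214 outside. Repeat-masked bases made up 37.1% of gaps and 30.5% of the rest. GC content was lower and repeat content higher in gaps than in the rest of the same chromosome in 19 of 19 autosomes, with GC differences between -2.90 points on chromosome 13 and -5.91 points on chromosome 5. Longer gaps were more AT-rich, from 41.2% GC in the 174 gaps under 600 kb to 38.0% in the 30 gaps of 3 Mb or more. Across the 972 gaps Spearman's rho was -0.42 between length and GC content and -0.65 between GC content and repeat content; neighbouring gaps share chromosome and base composition, and no test was made.

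Single gaps at both ends of the GC range differed in their genes. The most GC-rich gap, at chr11:118419655-119023155 with 51.5% GC, contained Rbfox3 (the neuronal splicing factor NeuN), Engase and, at its edge, Cbx2, a Polycomb protein whose TSS was 193 bp from the bounding peak. The next, at chr8:120672968-121374588 with 51.4% GC, contained the forkhead genes Foxf1, Foxc2 and Foxl1, which act in mesoderm development, and Irf8, a transcription factor of myeloid cells. The lowest GC content, 35.3%, was in a gap without a TSS of a protein-coding or lincRNA gene, at chr1:146498142-147198932. These 3 gaps were picked for their values.

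Genes were sparse in the gaps. Protein-coding and lincRNA (long intergenic non-coding RNA) genes were placed by the TSS of their longest isoform of either type. Of 25930 such autosomal genes, 5235 lay in a gap, or 20.2% (95% Wilson interval 19.7 to 20.7%, which covers counting error only). For protein-coding genes the count was 3596 of 20722, or 17.4% (16.8 to 17.9%), and for lincRNA genes 1639 of 5208, or 31.5% (30.2 to 32.8%). Gaps held 4.78 genes per Mb of assembled sequence, intervals of 100 to under 500 kb held 7.93, and the autosomes outside gaps, peaks included, held 15.9. The density outside was thus 3.33 times that in gaps for all genes, 4.01 times for protein-coding genes and 1.83 times for lincRNA genes. Part of this contrast follows from the choice of gaps, since a TSS beneath a peak cannot lie in one. Among the 10341 protein-coding genes without a peak within 1 kb of the TSS (unmarked genes), 3547 or 34.3% were in gaps.

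Gene number varied widely between gaps. The median gap held 3 genes, 95 gaps (9.77%) held none, 533 held 1 to 4, 302 held 5 to 19 and 42 held 20 or more. The 42 gene-rich gaps contained 1636 genes, 31.2% of all genes in gaps, and were also the richest in repeats (47.4%) and the least unique (71.9%) of these classes. In 247 gaps no protein-coding gene started. The longest gap without a TSS of either class measured 1.77 Mb and lay at chr12:93670624-95437065. Gene density and GC content rose together across the gaps (rho 0.39, n = 972, a description), while gene density and uniqueness had a rho of -0.02.

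Bodies of protein-coding genes covered 28.2% of the gaps, against 48.2% of the intervals of 100 to under 500 kb and 52.5% of the autosomes outside gaps. In 170 gaps they covered less than 1% and in 236 gaps more than 50%. Single genes spanned 18 whole gaps. Among the 17 genes that did so were Ptprd, a receptor tyrosine phosphatase of synapses, Lrp1b, a lipoprotein receptor-related protein, Rbfox1, a splicing factor of neurons and muscle, Fhit, a dinucleoside hydrolase at a common fragile site, which spanned 2 gaps, and Auts2, Magi2, Opcml, Grm8 and Trpm3. One of the 17, Gm20388 on chromosome 8, is a gene model of 4435 kb that runs across many other genes and is uncertain.

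The share of each autosome in gaps ranged from 30.6% on chromosome 11 to 52.9% on chromosome 3. Chromosomes 11, 9 (34.0%) and 19 (35.1%) had the least and chromosomes 3, 15 (50.1%) and 1 (49.1%) the most. Chromosomes with more genes per Mb had less of their length in gaps (rho -0.77, n = 19 autosomes, a description), and those with higher GC content likewise (rho -0.61). Peaks lay over the TSS of 10103 of the 25930 autosomal genes, so gene density and length in gaps are not independent measures. Genes in gaps made up 9.88% of the genes of chromosome 11 and 25.5% of those of chromosome 7, which has several receptor arrays. Gene density was lower in gaps than in the rest of the chromosome in all 19 autosomes, with a ratio from 0.220 on chromosome 15 to 0.453 on chromosome 2. Uniqueness was also lower in gaps in all 19, and lowest in those of chromosome 7, at 81.0%. Along the chromosomes, gaps took 39.1% of the most centromeric of 5 equal parts, 48.9%, 51.5% and 46.7% of the next 3 and 36.8% of the most distal. The parts divide the full length of 2462.7 Mb, of which 2395.9 Mb is assembled. Sequence before the first or after the last peak of a chromosome cannot be in a gap. The lower shares of the end parts were not corrected for either.

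**Figure D2:**
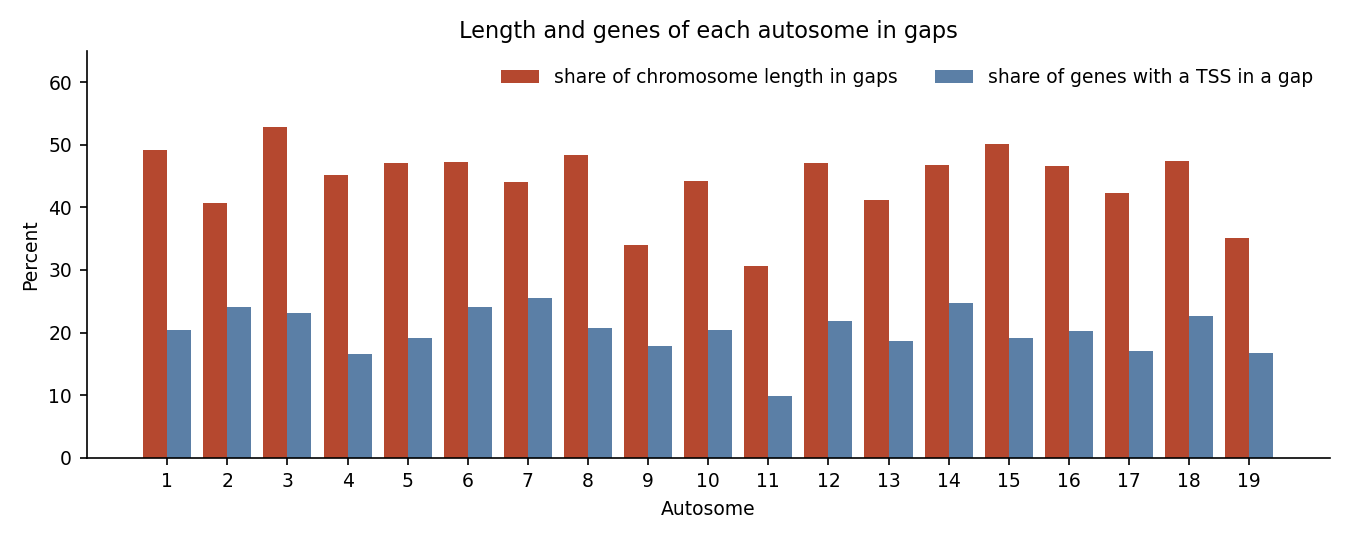
Percent of the length of each autosome that lay in gaps, and percent of its protein-coding and lincRNA genes with a TSS in a gap. In every autosome the share of genes is below the share of length; chromosome 11 has the lowest values of both, 30.6% and 9.88%.

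The 5 longest gaps held few genes, or one kind of gene. The longest, at chr2:94438143-101678443 (7.24 Mb), contained 12 genes, among them Lrrc4c, which encodes a netrin-G ligand of synapses and is itself 1313 kb long, and Rag1 and Rag2, the recombinase of antigen receptor genes. Traf6 at its right edge was the member with a peak in its promoter window. The second, at chr14:106107520-111260555 (5.15 Mb), contained Slitrk1 and Slitrk6, both synaptic organizers, and 4 lincRNA genes. The third, at chr7:7299653-12318348 (5.02 Mb), differed from the others in holding 51 genes, most of them vomeronasal receptors, with Nlrp4b, an oocyte gene, among them. The fourth, at chr11:35980456-40476333 (4.50 Mb), contained Tenm2, a teneurin of 1229 kb that joins synaptic membranes, with Wwc1, a regulator of Hippo signalling, 71 bp inside one edge. The fifth, at chr6:76640310-81071896 (4.43 Mb), contained Ctnna2 (neuronal alpha-catenin), Lrrtm1 and Lrrtm4 (synaptic leucine-rich repeat proteins) and the Reg genes of pancreas and gut.

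Among the 32 listed families of protein-coding genes, which cover 42.6% of the protein-coding genes in gaps, sensory receptors had the most members there. They are expressed in neurons of the olfactory epithelium, the vomeronasal organ and, for bitter taste receptors, taste cells, and they lie in tandem arrays. Of 1489 autosomal olfactory, vomeronasal and bitter taste receptor genes, 1065 were in gaps, or 71.5% (69.2 to 73.8%), against 17.4% of all protein-coding genes and 34.3% of unmarked ones. Only 2 of the 1489 had a peak at their promoter. The share was 70.0% for olfactory receptors (789 of 1127), 77.4% for vomeronasal type 1 receptors (161 of 208), 71.4% for type 2 receptors (85 of 119) and 85.7% for bitter taste receptors (30 of 35). The 1065 genes occupied 47 gaps that made up 5.12% of the gap length, but they were 29.6% of all protein-coding genes in gaps. Left without sensory receptors, 13.2% of protein-coding genes (12.7 to 13.6%) were in gaps, and the density outside was 5.56 times that inside. Of the sensory receptor genes in gaps, 135 (12.7%) were in the 38 gaps of low uniqueness: 42 olfactory receptors, 66 type 1 and 27 type 2 vomeronasal receptors and no bitter taste receptor.

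The gaps with most genes were receptor arrays. The largest count was 108 genes at chr7:102480258-104215743, of which 94 were olfactory receptors; the same gap also contained the beta-globin genes Hbb-bt, Hbb-bs, Hbb-bh2, Hbb-bh1 and Hbb-y, which encode haemoglobin chains of red blood cells and are named here after their position was seen. The array from Olfr1128 to Olfr1243 at chr2:87536437-89568764 put 96 olfactory receptors among 98 genes. A gap of 3.53 Mb at chr7:19942122-23467612 held 49 vomeronasal type 1 receptors, from Vmn1r91 to Vmn1r166, among 89 genes, and only 17.9% of its 100-mers were unique. Bitter taste receptors from Tas2r130 to Tas2r140 shared a gap of 1.71 Mb at chr6:131395045-133104735.

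Other tandem families of differentiated tissues also had members in gaps, against the same backgrounds of 17.4% of all protein-coding genes and 34.3% of unmarked ones. Secretoglobins, secreted proteins of glands and airways, had 31 of 34 genes in gaps (91.2%), 29 of them in a gap of 2.92 Mb at chr7:31208698-34128764 from Scgb2b2 to Scgb1b30. Skint genes, which act on skin T cells, had 10 of 11 in one gap, and major urinary proteins, pheromone carriers made in liver, had 17 of 22 in one gap at chr4:59965092-61966669. Killer cell lectin-like receptors of natural killer cells had 20 of 26 in 2 gaps, and keratins and keratin-associated proteins of hair and skin 75 of 110 in 4 gaps. Defensins, antimicrobial peptides of epithelia, had 34 of 64 in gaps, serpins (protease inhibitors of plasma) 30 of 60, and Ceacam and Psg genes, which include the pregnancy-specific glycoproteins of the placenta, 17 of 28. UDP-glucuronosyltransferases, enzymes that conjugate drugs and steroids, had 11 of 22, none of the 22 marked, and the interval from 30.7 to 69.3% includes the share of all unmarked genes. Cytochrome P450 enzymes had 34 of 99 (34.3%; 25.7 to 44.1%), and among their unmarked genes the share, 37.8%, was close to the 34.3% of all unmarked genes. For the Prame family, with 2 of 11, the interval from 5.14 to 47.7% spans both backgrounds.

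**Figure D3:**
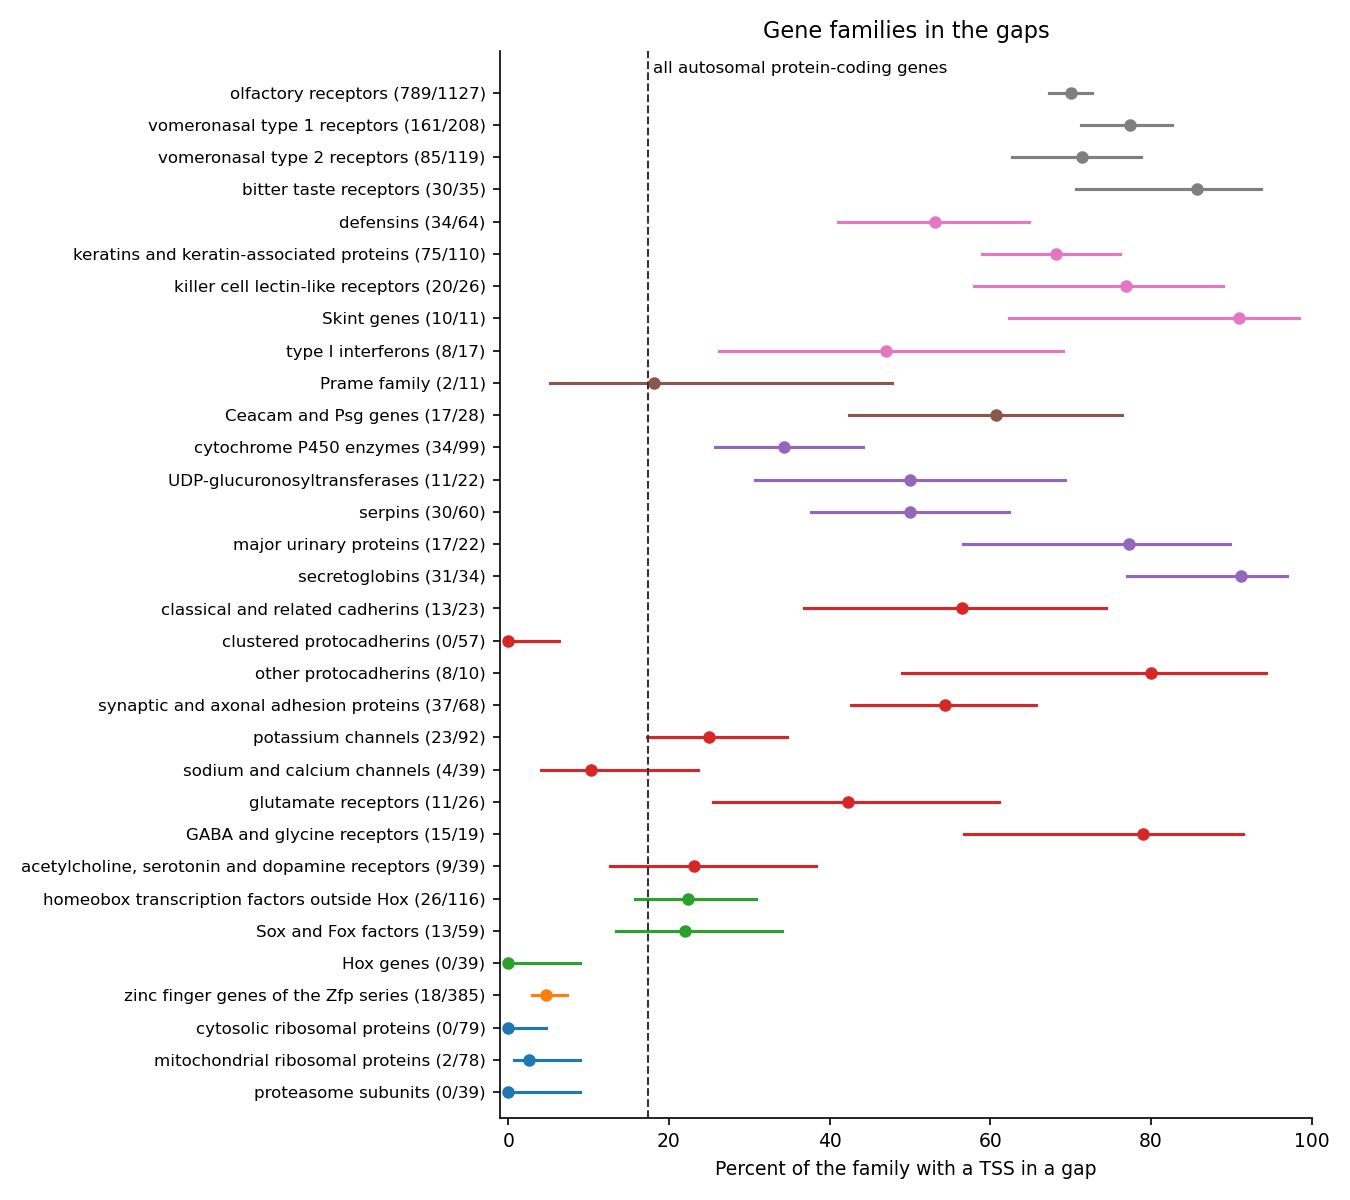
Percent of the members of each gene family with a TSS in a gap. Points are shares with 95% Wilson intervals (counting error only), colours mark groups of families, counts in parentheses are members in gaps and all members, and the dashed line is the share of all autosomal protein-coding genes, 17.4%. Receptor, epithelial and secreted-protein families and several neural families lie to the right of the line. Ribosomal, proteasome, Hox, Zfp and clustered protocadherin genes and sodium and calcium channels lie to its left. Some intervals cross the line, such as that of acetylcholine, serotonin and dopamine receptors (12.6 to 38.3%). The share of unmarked protein-coding genes in gaps, 34.3%, is not drawn.

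Neural adhesion genes were spread over many gaps rather than packed into a few. Synaptic and axonal adhesion proteins had 37 of 68 genes in 34 gaps, a share of 54.4% (42.7 to 65.7%), or 67.3% (54.1 to 78.2%) of the unmarked members, against 17.4% of all protein-coding genes and 34.3% of unmarked ones. They included the neurexin Nrxn3, the neuroligin Nlgn1, the contactins Cntn1, Cntn3, Cntn4, Cntn5 and Cntn6, the axon guidance receptors Robo1, Robo2, Dcc, Unc5c and Unc5d, and the growth factor genes Nrg1 and Nrg3. Cadherins, calcium-dependent adhesion molecules, had 13 of 23 in 13 separate gaps (56.5%; 36.8 to 74.4%). Cdh2 (N-cadherin), Cdh6, Cdh8, Cdh10, Cdh11, Cdh12, Cdh13 and Cdh18 were among them, and Cdh4 was at an edge with a peak in its promoter window. The other 10 were outside gaps; of these Cdh1 and Cdh3, the epithelial E- and P-cadherins, and Cdh24 had a peak at the promoter, and Cdh5, Cdh9, Cdh15, Cdh16, Cdh17, Cdh22 and Cdh23 had none. The protocadherins outside the Pcdha, Pcdhb and Pcdhg clusters had 8 of 10 in 8 gaps (95% Wilson interval of the share 49.0 to 94.3%), namely Pcdh7, Pcdh8, Pcdh9, Pcdh10, Pcdh15, Pcdh17, Pcdh18 and Pcdh20. None of the 57 clustered protocadherin genes was in a gap. They lie side by side and fall in or out of a gap together, so this count is not one of 57 separate units.

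Ion channels and receptors of neurons are set here against the same backgrounds of 17.4% of all protein-coding genes and 34.3% of unmarked ones. GABA and glycine receptor subunits, the channels of inhibitory synapses, had 15 of 19 genes in gaps (78.9%; 56.7 to 91.5%). Of these, Gabrg1, Gabra2, Gabra4 and Gabrb1 shared the gap at chr5:69592249-72167115. Glutamate receptors, which carry excitatory transmission, had 11 of 26 in 11 gaps, among them Gria1, Gria2, Gria4, Grik1, Grik2, Grin3a, Grm5 and Grm7. Over their unmarked genes the interval of the share, 30.7 to 69.3%, includes the 34.3% of all unmarked genes. Potassium channels had 23 of 92 (25.0%; 17.3 to 34.7%), and their unmarked genes 32.9%, close to the background of 34.3%. Sodium and calcium channels had 4 of 39 (10.3%; 4.06 to 23.6%), with Scn1a, Scn7a and Scn9a in one gap, and receptors for acetylcholine, serotonin and dopamine 9 of 39 (23.1%; 12.6 to 38.3%), and both intervals include 17.4%. Of their unmarked genes 14.3% (5.70 to 31.5%) and 21.6% (11.4 to 37.2%) were in gaps. Over all neural families the share was 32.2% (120 of 373, in 102 gaps), and 37.9% (32.7 to 43.4%) of the unmarked members, an interval that includes the 34.3% of all unmarked genes.

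Developmental transcription factors had 39 of 214 genes in gaps (18.2%; 13.6 to 23.9%), against 17.4% of all protein-coding genes. Of their unmarked genes 26.4% (19.9 to 34.1%) were in gaps, against 34.3% of all unmarked genes. Homeobox genes outside the Hox clusters had 26 of 116 in gaps (22.4%; 15.8 to 30.8%) and Sox and Fox factors 13 of 59 (22.0%; 13.3 to 34.1%), and the shares of their unmarked genes were 30.5% and 34.2%. The members in gaps had roles in many lineages. Nkx2-1, Nkx2-9 and Pax9, of lung, thyroid and pharyngeal pouches, shared a gap of 0.752 Mb at chr12:56346298-57098218. Six2 and Six3 shared another. Isl1 (motor neurons and heart), Pax3 (neural crest and muscle), Foxa1 (endoderm) and Sox9 (cartilage and gonad) were each the only gene of these families in their gap. None of the 39 Hox genes, which lie in a few clusters and so are not separate units of position, was in a gap (3 of 39 would be 7.69%).

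Families that every cell uses were nearly absent from gaps, which hold 17.4% of all protein-coding genes. Of their 196 genes, 190 had a peak at the promoter, which by itself keeps a TSS out of a gap unless it is at the edge. None of 79 cytosolic ribosomal protein genes (limit 3.80%) and none of 39 proteasome subunit genes (limit 7.69%) was in a gap, and 2 of 78 mitochondrial ribosomal protein genes were, Mrps33 and Mrpl17, both with the TSS within 100 bp of a bounding peak that their promoter window overlapped. Zinc finger genes of the Zfp series, many of them KRAB repressors of transposons, had 18 of 385 in gaps (4.68%, 2.98 to 7.27%). Of their 83 unmarked genes, 17 were in gaps (20.5%, 13.2 to 30.4%), against 34.3% of all unmarked protein-coding genes. Of the 18, 6 from Zfp968 to Zfp973 lay in the gap with 0.635% unique 100-mers.

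Genes of great length often started in gaps. Of 218 protein-coding genes of 500 kb or more, 134 or 61.5% had their TSS in a gap, against 17.4% of all protein-coding genes and 34.3% of unmarked ones, and 179 overlapped one. The longest with a TSS in a gap included Ptprd (2271 kb), Cntnap2 (2245 kb), Lsamp (2197 kb), Lrp1b (2058 kb), Csmd1 (1643 kb), Nrxn3 (1612 kb), Pcdh15 (1550 kb), Rbfox1 (1526 kb) and Pde4d (1504 kb). Apart from Pde4d, a phosphodiesterase of wide expression, they are known mainly for roles in neurons or sensory cells, and Lsamp and Csmd1 encode a limbic adhesion protein and a complement-regulating membrane protein. Isoforms that start elsewhere can place the same gene outside a gap, and the annotated Ptprd gene extends upstream of the TSS used here. The typical gap gene was much shorter, with a median of 8.86 kb for protein-coding genes, or 17.4 kb without sensory receptors, against 19.2 kb outside gaps.

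Promoters in gaps were poor in CpG. From 250 bp before to 50 bp after the TSS, protein-coding genes in gaps had a median of 2 CpG and 44.3% GC, against 5 CpG and 52.3% for unmarked genes outside gaps and 21 CpG and 61.3% for marked genes outside gaps. Island-like windows, with observed over expected CpG above 0.6 and GC content above 50%, made up 12.5%, 20.2% and 72.2% of these 3 sets. Of the sensory receptors in gaps, 0 of 1065 had an island-like window, and their median was 1 CpG and 36.7% GC. An annotated TSS can be a coding start rather than a promoter, but this applied to 12.4% of these receptors, and the remaining 933 also had a median of 1 CpG and no island-like window. Without sensory receptors, gap genes had a median of 4 CpG and 17.8% island-like windows, and unmarked genes outside gaps without sensory receptors had 6 CpG and 21.5%.

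The number of island-like promoters differed between families. They made up 12.5% of all protein-coding genes in gaps, 17.8% without sensory receptors, and 44.8% of all autosomal ones. Among gap members they were 15 of 26 homeobox genes, 7 of 13 Sox and Fox factors and 5 of 8 non-clustered protocadherins. Glutamate receptors had 5 of 11, potassium channels 8 of 23, synaptic adhesion genes 12 of 37 and Zfp genes 5 of 18. Keratins had 2 of 75, cytochrome P450 enzymes 1 of 34, defensins 0 of 34, serpins 0 of 30 and secretoglobins 0 of 31. Shares of the same families outside gaps are not given, so a family trait cannot be told from a trait of gaps. The motif TATAAA, searched on both strands, was present in 26.97% of the windows of protein-coding gap genes, in 14.1% of unmarked and 6.36% of marked genes outside gaps, and in 12.5% of all autosomal protein-coding genes. A match of 6 letters is a description and is more frequent in AT-rich sequence. LincRNA genes in gaps had island-like windows in 3.11% of cases, against 4.00% of unmarked and 30.2% of marked lincRNA genes outside.

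**Figure D4:**
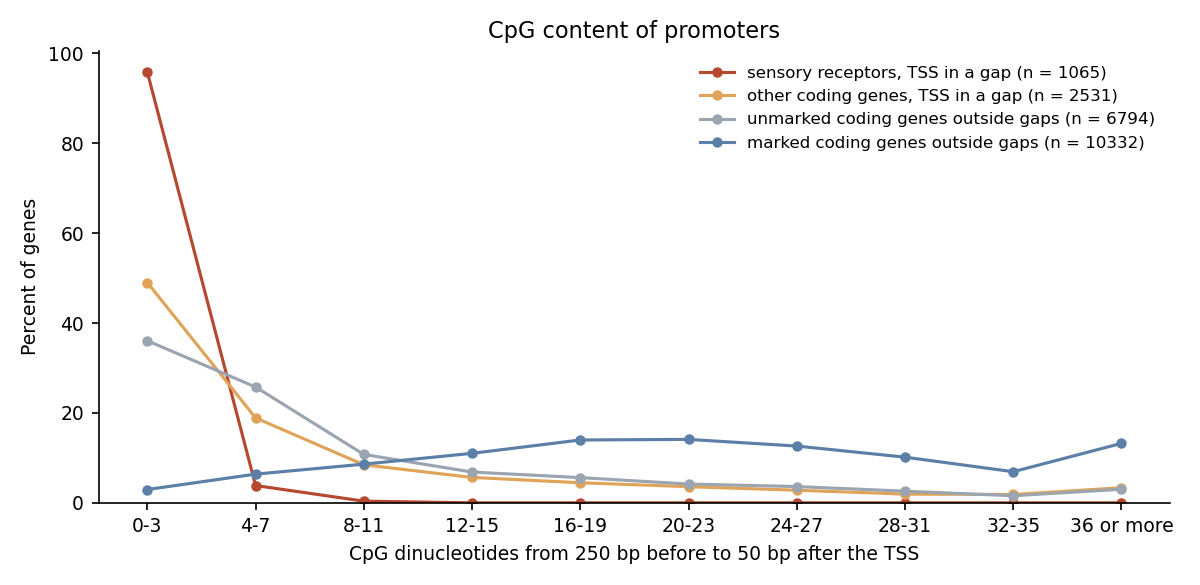
Percent of protein-coding genes by number of CpG dinucleotides from 250 bp before to 50 bp after the TSS, in steps of 4, for sensory receptors in gaps (n = 1065), other genes in gaps (n = 2531), and unmarked (n = 6794) and marked (n = 10332) genes outside gaps. Of the sensory receptors, 95.8% had 0 to 3 CpG, as had 49.0% of the other gap genes, 36.1% of unmarked and 2.96% of marked genes outside gaps.

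Around the gap borders, promoter density and GC content were both highest in the 10 kb window that holds the bounding peak. Over the 1944 gap edges, protein-coding TSS numbered 37.5 per Mb in the 10 kb just outside, which include the bounding peak, and 6.44 per Mb in the first 10 kb inside. Between 10 and 50 kb inside they numbered 3.04 to 4.89 per Mb, and between 10 and 50 kb outside 6.74 to 7.32 per Mb. GC content was 42.2% in the 10 kb just outside, 40.8% in the first 10 kb inside and 40.1% between 240 and 250 kb inside, and between 10 and 50 kb outside it was 40.9 to 41.1%. CpG dinucleotides numbered 11.3 per kb in the 10 kb just outside and 7.83 per kb in the first 10 kb inside. Windows outside an edge can reach into a neighbouring gap. In all, 59 genes placed in gaps had a promoter window that reached a bounding peak. Among them were Zeb2 (347 bp from the peak), Twist1 (135 bp) and Msx2 (326 bp), regulators of mesenchyme and neural crest, and Nefm (199 bp), a neurofilament protein. These were picked from a mixed list, which also held the mitochondrial ribosomal genes Mrps33 and Mrpl17 and several lincRNA genes.

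**Figure D5:**
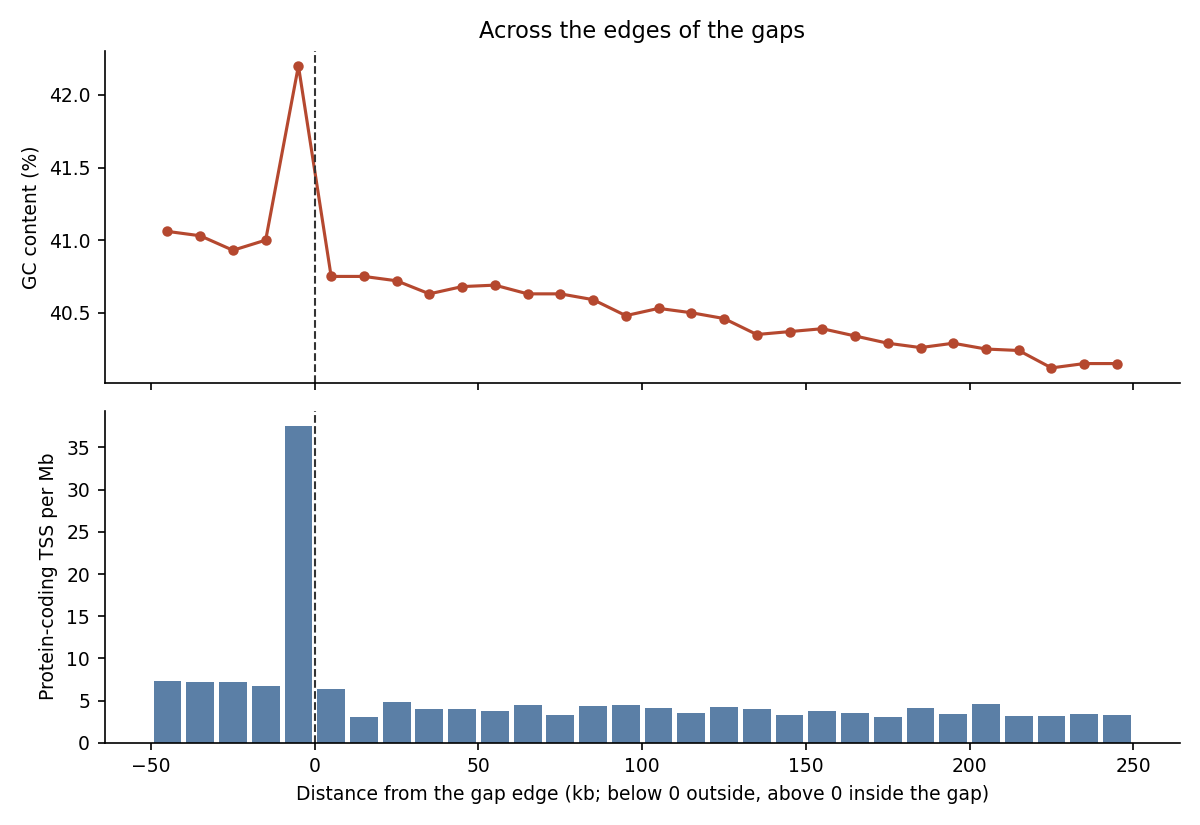
GC content (%) and protein-coding TSS per Mb in windows of 10 kb over all 1944 gap edges, by distance from the edge, with the gap to the right of the dashed line. Promoter density peaks at 37.5 per Mb in the window that holds the bounding peak and is between 3 and 7 per Mb inside; GC content declines from 40.8% to 40.1% inside the gap.

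The peaks that bounded gaps were narrower than other peaks. The 1755 bounding peaks had a median width of 1819 bp, against 2077 bp for the 20763 autosomal peaks that bounded none, and 2.17% of them were 10 kb or wider, against 7.50%. They overlapped a promoter window in 36.0% of cases (33.8 to 38.3%), against 42.5% (41.8 to 43.2%) for the others, and their median GC content was 46.3%, against 49.8%. For the 189 peaks with a gap on both sides the promoter share was 22.8% (17.4 to 29.2%), and none was 10 kb or wider. Such peaks joined gaps into runs: 326 gaps lay in 137 runs of 2 or more, and 646 stood alone. The longest run, at chr5:53999395-63564303, comprised 6 gaps with 5 peaks between them, spanned 9.57 Mb and held 10 genes. Because position defines these peaks, their widths and promoter shares are a description and were not tested against chance.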

How the data were processed

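H3K27ac was measured by single-end ChIP-seq in control and treated ESC. According to the study's methods, reads were trimmed with Cutadapt, aligned with bwa to mm10 joined to a human genome, cleared of duplicates with Picard 2.9.1 and filtered by mapping quality with SAMtools 1.4. LanceOtron peaks were merged within 2 kb, and the authors removed low peaks and peaks away from ATAC-seq summits. A gap therefore lacks a retained peak, and weaker H3K27ac in it cannot be seen here. The deposited control list, pooled over 2 replicates, gives a chromosome, start and end in base pairs for each peak, with no count, signal or other score.

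Intervals ran from the end of a peak to the start of the next. Genes were those of GENCODE M21 (protein-coding and lincRNA). Each was placed by the start of its isoform of greatest genomic span, with isoforms of other transcript types left out. A promoter was marked when a peak overlapped the window of 1 kb on each side. GC, CpG, soft-masked repeats and unassembled bases were counted in the RefSeq GRCm38 sequence. Uniqueness is the share of 100-mers, sampled every 500 bp, found once in either strand of the assembled chromosomes. The 32 gene families were defined by gene symbol. Printed promoters came from RefSeq; receptors that start at a coding start, or whose window holds an exon, were passed over, which left no vomeronasal type 1 receptor. The steps were checked on simulated data. Python 3.11.15, numpy 2.4.6, pandas 2.3.3, scipy 1.17.1 and numba 0.67.0 were used. Intervals are 95% Wilson intervals that count each gene as a separate unit, although tandem genes share a position, limits for a count of 0 are 3 counts of the total, and no significance test was made.

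Members and lists were chosen with earlier results of these data known. Named genes were the longest genes of the 5 longest gaps with their neighbours, the first and last member of each family's largest cluster, the 10 longest genes, genes spanning a gap, and genes of the every-cell families in gaps; the remaining family members, genes at gap edges and genes of single gaps were named once their values had been seen. Some items that these rules name are not reported here. Alternatives covered other length limits, wider peaks, midpoints, gaps without much unassembled or repeated sequence, other gene sets and other TSS.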

Additional observations from a re-analysis of the deposited data

How the results depend on the processing

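Alternatives were run for the number of gaps, their share of length, genes and sensory receptors, the gene density ratio and the GC difference; gene density and GC content stayed lower in gaps throughout, and the remaining values were computed at the main setting alone. With minimum lengths of 400 and 1000 kb, the share of autosomal length in gaps was 48.9% and 28.1%. The share of genes was 23.1% and 11.6%, and the share of sensory receptors 76.6% and 49.2%. The number of gaps was 1210 and 393, and the density ratio of gaps to the rest 0.298 and 0.322. With only peaks of 1 kb or more as borders, these were 48.2% of length, 23.0% of genes, 74.4% of sensory receptors, 1010 gaps and a ratio of 0.305. Without gaps of more than 10% unassembled bases, length was 44.1% and the ratio 0.295. Without the 38 gaps of low uniqueness, an alternative added after the data were seen, gaps held 42.6% of the length, 17.6% of the genes and 62.5% of the sensory receptors, with a ratio of 0.275. With protein-coding genes alone the ratio was 0.249 and the gene share 17.4%, and 0.180 without sensory receptors (also added later); with whole gene bodies the ratio was 0.284 and the share 19.3%. The GC difference was -4.81 points in windows of 10 kb with at least 90% unique 100-mers and stayed within 1% of -4.50 points otherwise. No paired analysis was possible because the control replicates were pooled into a single peak list, and for the same reason no replicate could be left out. Sequencing depth limits which peaks were called, and how many gaps a deeper library would divide is unknown.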

Other observations

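Genes of other annotation classes, placed by their 5′ end, also differed in how many lay in the gaps, which hold 45.7% of the assembled autosomal sequence. Unprocessed pseudogenes, which are decayed gene duplicates, had 1037 of 1789 in gaps (58.0%; 55.7 to 60.2%), and processed pseudogenes, copies of spliced mRNA, 3604 of 8924 (40.4%; 39.4 to 41.4%). Immunoglobulin and T-cell receptor segments, which are joined by recombination in lymphocytes, had 324 of 494 in only 9 gaps (65.6%; 61.3 to 69.6%). The largest set, 60 segments from Igha to Ighv14-3, lay at chr12:113157760-114063786, and 48 Trav segments lay in a gap at chr14:53045963-53562455 of which 46.2% of 100-mers were unique. At the low end, antisense genes had 441 of 2913 in gaps (15.1%; 13.9 to 16.5%) and non-coding RNAs of bidirectional promoters 8 of 190 (4.21%; 2.15 to 8.09%).

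Small RNA genes in gaps included a pair of large clusters. Gaps held 537 of 2054 miRNA genes (26.1%; 24.3 to 28.1%), spread over 275 gaps, and 623 of 1442 snoRNA genes (43.2%; 40.7 to 45.8%), spread over 301 gaps, against 20.2% of protein-coding and lincRNA genes and 45.7% of sequence. The snoRNA interval includes the share of sequence, but 210 of the 623 came from a single gap, and the share would be lower without them. Of the miRNA genes, 119 lay in one gap at chr2:10375285-11500834, and of the snoRNA genes, 210 lay in one gap at chr7:59230131-60002451, where 17 of them carried Snord115 or Snord116 symbols. Genes of one cluster are not independent units.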
